A study of Mus musculus with 6 samples.

Results

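Aminoacyl-tRNA synthetases are the enzymes that join each amino acid to its tRNA, and their transcripts were followed here in mouse dorsal root ganglia (DRGs) that lacked Meis1 in nociceptors. The set holds every probe set of the array that is paired with 1 gene only and whose gene carries a synthetase symbol (1 amino acid letter followed by ars, with or without a closing 1 or 2, or Farsa, Farsb or Eprs). It comprises 72 of 45037 probe sets and 35 of 18193 genes, with 19 cytosolic enzymes (40 probe sets) and 16 mitochondrial enzymes (32 probe sets), the latter being those whose symbol ends in 2. Each gene was represented by its brightest probe set, the one with the highest mean log2 intensity over the 6 arrays, and 23 of the 35 genes had others as well. The set was put together around Lars2 after its difference between these same arrays had been seen, so Lars2 is described without a test.

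The Meis1cko mice carried floxed Meis1 alleles and a Nav1.8-Cre transgene, in which a promoter fragment of the nociceptor sodium channel Nav1.8 drives Cre in small sensory neurons, and the comparison group is labelled only as control DRGs. Both groups were collected at P60 (2 months of age), with 3 biological replicates each, and total RNA of cervical, thoracic and lumbar ganglia was hybridised to Affymetrix mouse genome 430 v2.0 arrays. Cre acts in part of the neurons only, so other cells with an intact Meis1 gene, such as glia and connective tissue, also gave RNA to every array. The paper found Meis1 at P60 in a few large neurons only, with no detectable expression in nociceptors. Sex is not given in the labels of the arrays.

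Every cell keeps separate synthetases for the cytosol and for the mitochondrial matrix, all encoded by nuclear genes. Only lysine and glycine are served in both compartments by the product of 1 gene (Kars and Gars), and mitochondrial glutaminyl-tRNA is made indirectly, by charging with glutamate through EARS2 followed by amidation. Long sensory axons are sensitive to changes in these enzymes: dominant mutations of several cytosolic members, such as GARS, YARS and AARS, are known to give Charcot-Marie-Tooth neuropathy. Lars2 encodes the mitochondrial leucyl-tRNA synthetase, whose loss-of-function variants are known from Perrault syndrome, with hearing loss and ovarian failure. Transcription of many cytosolic synthetases is raised by ATF4, the transcription factor of the amino acid response, which binds composite elements near their start sites.

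The bases just before the start site are shown for Lars2, because its brightest probe set separated the groups. They are also shown for Aars, Gars and Tars, which carry the letters of an amino acid response element. No mitochondrial promoter searched had those letters. The sequences are from RefSeq (GRCm38.p6), 250 bases each, written 5′ to 3′ on the strand of the gene, and lie at chr9:123366677-123366926 (plus strand), chr8:111033592-111033841 (plus), chr6:55037751-55038000 (plus) and chr15:11399659-11399908 (minus). Capitals mark matches on either strand to TGACAG, the core letters bound by MEIS proteins, in Lars2 and Aars, and to TGATGNAAN, the amino acid response element, in Aars, Gars and Tars.
Lars2: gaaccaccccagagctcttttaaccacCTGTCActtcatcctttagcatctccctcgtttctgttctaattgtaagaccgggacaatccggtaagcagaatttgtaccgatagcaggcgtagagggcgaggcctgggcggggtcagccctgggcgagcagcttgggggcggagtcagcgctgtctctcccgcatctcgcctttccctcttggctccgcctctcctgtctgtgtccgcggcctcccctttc
Aars: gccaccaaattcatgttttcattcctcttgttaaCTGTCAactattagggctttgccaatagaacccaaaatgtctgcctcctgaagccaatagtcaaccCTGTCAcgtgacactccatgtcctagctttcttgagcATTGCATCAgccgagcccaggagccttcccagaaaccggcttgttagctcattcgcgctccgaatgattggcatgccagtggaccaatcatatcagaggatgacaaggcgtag
Gars: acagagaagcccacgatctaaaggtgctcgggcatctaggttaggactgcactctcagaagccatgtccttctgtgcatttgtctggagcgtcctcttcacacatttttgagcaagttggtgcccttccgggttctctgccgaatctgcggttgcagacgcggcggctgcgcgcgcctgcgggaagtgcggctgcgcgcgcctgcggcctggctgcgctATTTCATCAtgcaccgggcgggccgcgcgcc
Tars: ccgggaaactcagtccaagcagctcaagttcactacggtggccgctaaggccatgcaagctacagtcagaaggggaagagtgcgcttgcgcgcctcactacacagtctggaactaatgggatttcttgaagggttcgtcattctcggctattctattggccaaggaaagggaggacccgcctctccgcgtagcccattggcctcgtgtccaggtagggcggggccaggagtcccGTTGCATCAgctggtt
Promoter windows of 300 bases (250 before and 50 after the start) were found for 26 of the 35 genes, in 27 windows. TGATGNAAN stood in 5 of 12 cytosolic windows (Aars, Gars, Iars, Tars and Yars, 41.7%) and in 0 of 15 mitochondrial windows, beside 3.95% of all 32851 windows. TGACAG stood in 5 of 12 cytosolic windows (Aars, Farsb, Iars, Qars and Yars) and in 2 of 15 mitochondrial windows (Lars2 and Nars2, 13.3%), beside 19.2% of all windows. The single match of Lars2 lay on the opposite strand, at positions -223 to -218 before the start. The marked letters do not overlap one another in these promoters, and a match describes the letters only. Median GC content was 56.3% in the cytosolic windows, 58% in the mitochondrial windows and 52.7% in all, with 58.3% in that of Lars2.

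Meis1 itself, by its brightest probe set, had an intensity of 115 ± 27.1 (SD, n = 3) in control ganglia against 67.4 ± 4.17 in Meis1cko ganglia, with no overlap and in the direction of the labels. In which cells it was lower was not tested. The 8 measured sensory neuron markers were bright in all arrays, with a mean log2 intensity of 11.8 to 11.9 in control and 11.7 to 12 in Meis1cko DRGs. Their median log2 fold change was 0.02, and 1 of the 8 (Scn10a, higher) had an unadjusted p under 0.05 (limma), beside 2.56% of all genes. Pou4f1 was 1056, 1184 and 729 in control and 911, 937 and 264 in Meis1cko arrays. The 6 connective tissue markers were all lower in Meis1cko DRGs (median log2 fold change -0.56), and their mean log2 intensity was 9.91 to 10.6 in control and 9.48 to 9.70 in Meis1cko DRGs. Of these 6, 4 had an unadjusted p under 0.05 (limma), beside 2.56% of all genes. With a fold over 1.5 as well, 2 passed, beside 0.781% of all genes. The largest difference was that of Lum, at -1.34 (SE 0.14). The replicate 3 arrays of both genotypes stood apart from the other 4 on the first principal component, which held 59.2% of the variance. Over all probe sets, 7 passed an adjusted p of 0.05 in limma (Benjamini-Hochberg), or 0.0155%.

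Lars2 was higher in Meis1cko DRGs on its brightest probe set (1435682_at). Its intensity was 292, 294 and 243 in the control arrays of replicates 1, 2 and 3, and 704, 638 and 565 in the Meis1cko arrays. Every Meis1cko array was above every control array, and replicate 3 was the lowest of each genotype. The group means were 276 ± 29.0 and 635 ± 69.4 (SD, n = 3), a ratio of 2.30 and a log2 difference of 1.20, both from the means of the log2 values. Within the arrays of the same replicate number the log2 difference was 1.27, 1.12 and 1.22. In whole ganglia, more cells with the transcript and more transcript per cell cannot be told apart. The rise was that of this probe set only, so it is not shown for Lars2 transcripts as a whole.

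The other Lars2 probe sets did not follow the brightest one, as the plot of the Lars2 probe sets shows. The second (1439225_at) was 72.6, 59.4 and 73.7 in control and 59.4, 61.2 and 104 in Meis1cko DRGs. The groups overlapped, with a log2 difference of 0.08, and the Meis1cko mean of 75.0 ± 25.4 rested on the replicate 3 array. The dimmest (1443672_at) was 33.7, 30.6 and 26.6 in control and 20.8, 19.6 and 20.9 in Meis1cko DRGs, so that every Meis1cko array was lower, by a log2 difference of -0.56. Its Meis1cko values lay near the 25th percentile of the arrays, which was between 20.8 and 22.6. Averaged over its 3 probe sets, the log2 difference of Lars2 was 0.24. The transcripts or exons that each probe set reads are not given in the sources used here.

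**Figure D1:**
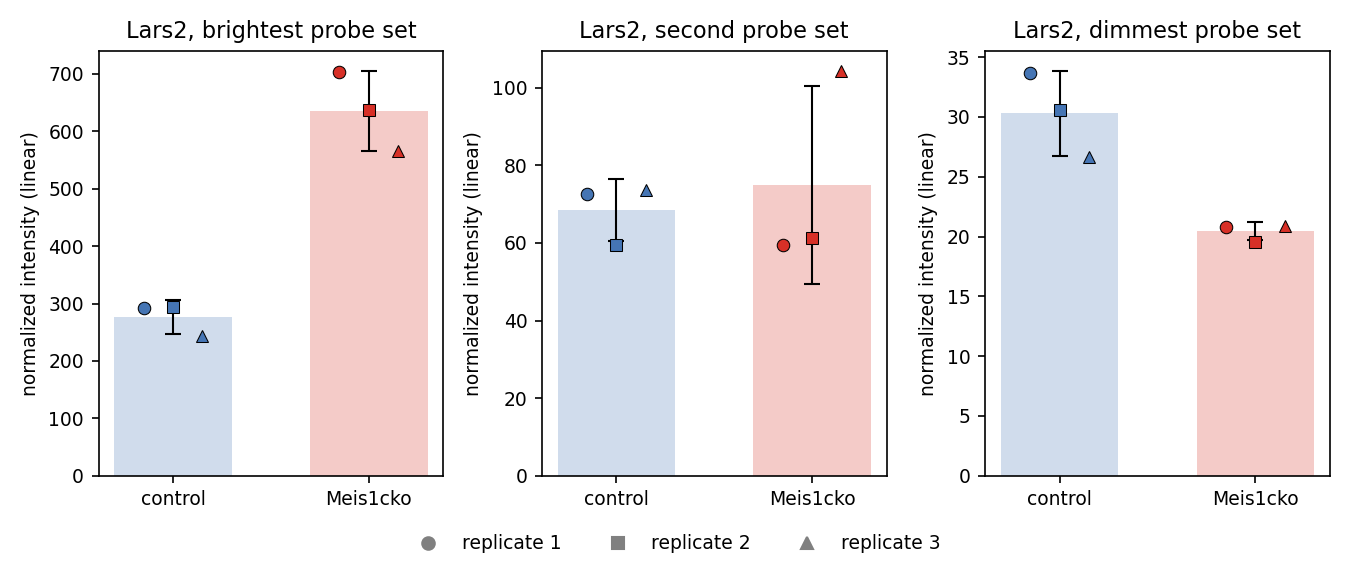
Normalized intensity (linear scale) of the 3 Lars2 probe sets in control and Meis1cko DRGs, with bars for the mean, error bars for the SD (n = 3) and symbols for the replicate number. The brightest probe set is higher in each Meis1cko array, the second overlaps between the groups and the dimmest is lower in each Meis1cko array.

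Several measures of the RNA differed between arrays beside Lars2. The log2 difference of the 3′ over the 5′ control probe sets of Actb, a measure of RNA integrity and labelling, was 1.23, 1.30 and 0.42 in control and 1.66, 1.32 and 0.44 in Meis1cko arrays. The same measure for Gapdh was 0.73, 0.66 and -0.01 in control and 1.13, 0.67 and -0.02 in Meis1cko arrays. The means were 0.98 against 1.14 for Actb and 0.46 against 0.59 for Gapdh, with the widest gap between the replicate 1 arrays. The lower connective tissue markers moved with the genotype as Lars2 did, in the opposite direction. The part of these measures and markers in the Lars2 difference was not tested.

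None of the other synthetases separated the genotypes as the brightest Lars2 probe set did. Of the 34 other genes, 0 passed the adjusted p of 0.05 (limma, Benjamini-Hochberg over 45037 probe sets), beside 0.0055% of all 18193 genes. With the cut-offs of the study's methods (a fold over 1.5 and p under 0.05) 0 passed, beside 0.781% of all genes. At an unadjusted p under 0.05, in the fit without a replicate block, the count was also 0 (2.56% of all genes). Groups that did not overlap were found for 0 genes (6.94% of all genes). In the Meis1cko arrays 17 of the 34 were above and 17 below the control mean, where 45.8% of all genes were above, and their log2 fold changes ran from -0.18 to 0.38. The 95% interval of the fold change lay within 1.5-fold in both directions for 30 of the 34, as for 73% of all genes. The 4 genes with wider intervals were Qars, Cars, Sars2 and Ears2. For them a change of that size could not be told from none with 3 arrays a group, in the fit without a replicate block. Deviations shared by arrays of the same replicate number stay in the error of that fit.

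**Figure D2:**
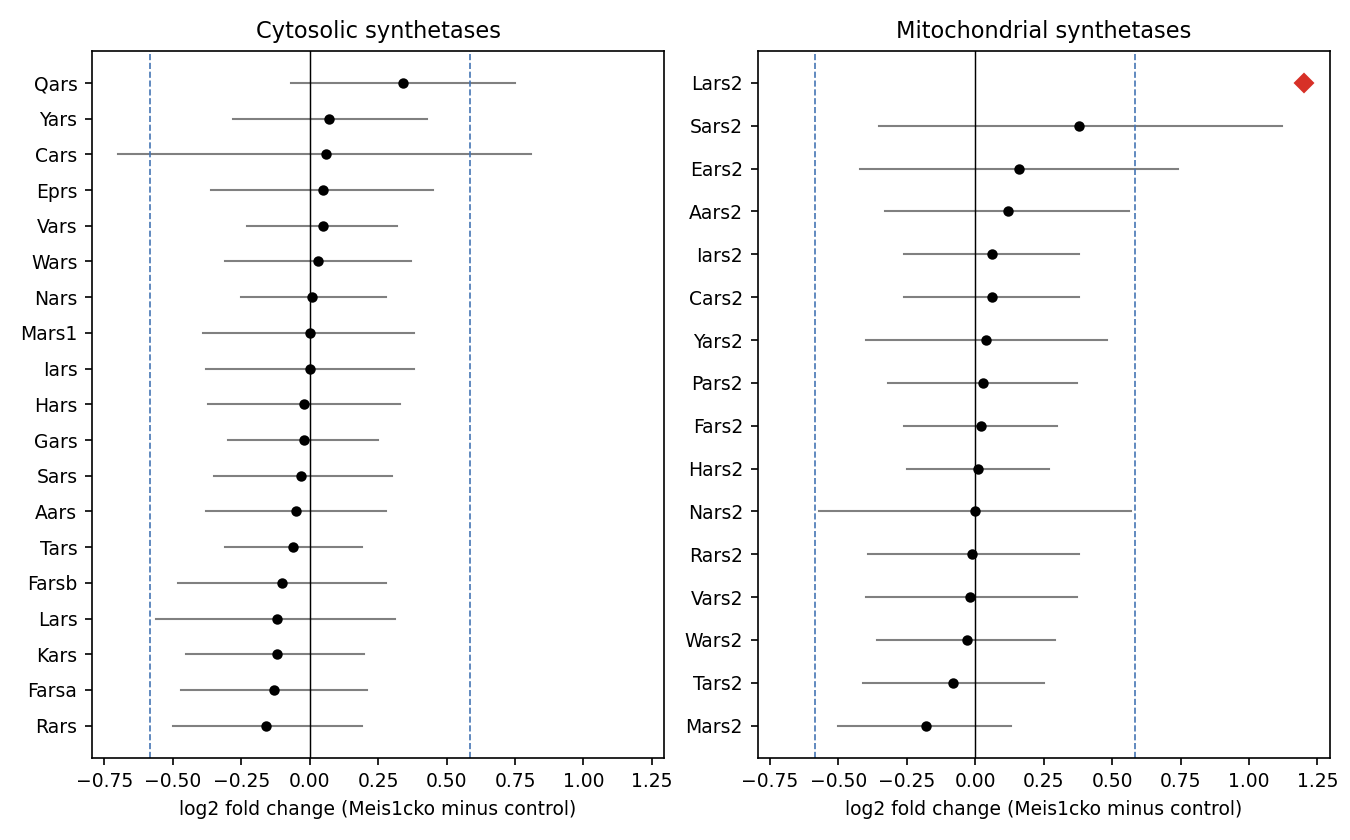
Log2 fold change (Meis1cko minus control) of the brightest probe set of each cytosolic (left) and mitochondrial (right) synthetase gene, with 95% intervals from limma and dashed lines at 1.5-fold. All 34 intervals, from the fit without a replicate block, include 0. The diamond is Lars2 (1.20), shown without an interval because it was chosen on this contrast.

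The 19 cytosolic enzymes had a median log2 fold change of -0.02, beside -0.01 for all genes, with 8 above and 11 below 0. The standard errors were between 0.11 and 0.32 on the log2 scale, and the smallest unadjusted p was 0.0906 (limma), that of Qars. Across the pairs of equal replicate number, 1 gene (Qars) was higher in all 3 pairs, beside 12.9% of all genes. Another 5 (Farsb, Kars, Lars, Rars and Tars) were lower in all 3, beside 17.2% of all genes.

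Qars, the glutaminyl-tRNA synthetase, had the largest cytosolic difference. Its intensity was 762, 1103 and 1036 in control and 1060, 1306 and 1279 in Meis1cko arrays, with 1 control array far below the rest and overlap between the groups. The log2 fold change was 0.34 (SE 0.18, 95% interval -0.07 to 0.75; limma, adjusted p = 1). It came from a probe set with the suffix _x_at (1456213_x_at), which in Affymetrix naming marks probes that can match other transcripts, and the 3 other Qars probe sets gave -0.08, -0.05 and -0.02. Without the low control array (replicate 1) the difference was 0.18.

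Rars, Lars and Kars, the arginyl-, leucyl- and lysyl-tRNA synthetases, share the multisynthetase complex with Qars and had values slightly below 0. Rars was 1225, 1100 and 946 in control and 1048, 1022 and 860 in Meis1cko arrays, a difference of -0.16 on the log2 scale (SE 0.15). Lars, the cytosolic counterpart of Lars2, was 1245, 1206 and 916 in control and 1142, 1125 and 827 in Meis1cko arrays, a log2 fold change of -0.12 (SE 0.19, 95% interval -0.56 to 0.31). The groups overlapped for both genes, and replicate 3 was the lowest array of each genotype in both. Kars lay at -0.12 (SE 0.14). The other 3 enzymes of the complex were at 0.05 (Eprs, which charges glutamate and proline), 0.00 (Iars, isoleucine) and -0.00 (Mars1, methionine). Of the 7 complex enzymes measured here 0 passed any of these thresholds, with a median of -0.00.

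Phenylalanine is charged in the cytosol by an enzyme of paired subunits, Farsa and Farsb. Farsa was 227, 246 and 270 in control and 253, 194 and 234 in Meis1cko arrays, with overlap and a difference of -0.13 on the log2 scale (SE 0.14). Farsb differed by -0.10 (SE 0.16) on its brightest probe set. All 4 probe sets of each subunit were below 0, between -0.09 and -0.31 for Farsa and between -0.10 and -0.27 for Farsb. The largest difference for Farsb was on a probe set that averaged 703 ± 50.3 in the control arrays against 584 ± 61.2 in the Meis1cko arrays (SD, n = 3), without overlap (log2 -0.27, SE 0.13, limma adjusted p = 1). The dimmest Farsa probe set was also without overlap, at 13.8 ± 1.13 in control and 11.1 ± 1.10 in Meis1cko DRGs, below the 25th percentile of every array.

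A list of cytosolic enzymes whose human counterparts are mutated in inherited neuropathy held Gars, Yars, Aars, Hars, Mars1 and Wars, and may not be complete. All 6 were within 1.5-fold of control by their 95% intervals, beside 73% of all genes, with a median log2 fold change of -0.01. Gars, the glycyl-tRNA synthetase, was 4363, 4200 and 3849 in control and 3958, 4364 and 3903 in Meis1cko arrays. Its means of 4137 ± 263 and 4075 ± 252 (SD, n = 3) differed by less than the spread between arrays, with a log2 fold change of -0.02 (SE 0.12, 95% interval -0.30 to 0.25). Yars, for tyrosine, had a log2 fold change of 0.07 (SE 0.15), with pairs at -0.13, -0.09 and 0.44, and Aars, for alanine, one of -0.05 (SE 0.14). Wars, Hars and Mars1 lay at 0.03, -0.02 and -0.00.

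Of the remaining cytosolic enzymes, Tars and Nars had the smallest standard errors. Tars, for threonine, was 645, 625 and 622 in control and 629, 592 and 594 in Meis1cko arrays, a log2 fold change of -0.06 (SE 0.11). Nars, for asparagine, had means of 6245 ± 51.7 in control and 6303 ± 446 in Meis1cko DRGs (log2 0.01, SE 0.11). Vars and Sars, for valine and serine, lay at 0.05 (SE 0.12) and -0.03 (SE 0.14). Cars, for cysteine, had the widest cytosolic interval, from -0.70 to 0.81, since its replicate 3 arrays were high in both genotypes: 121, 116 and 178 in control and 104, 116 and 232 in Meis1cko arrays.

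The 15 mitochondrial enzymes other than Lars2 had a median log2 fold change of 0.02, with 9 above and 6 below 0, and their smallest unadjusted p was 0.215 (limma), that of Mars2. Of these, 2 genes (Aars2 and Sars2) were higher in all 3 pairs and 0 were lower in all 3, beside 12.9% and 17.2% of all genes. Lars2, which was chosen on this contrast, lay at 1.20 on its brightest probe set, above the range of the other 15, which ended at 0.38. Its second probe set (0.08) and the average of its 3 probe sets (0.24) lay within that range. Its dimmest (-0.56) lay below it.

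Sars2, the mitochondrial seryl-tRNA synthetase, came next after Lars2. Its intensity was 69.3, 117 and 112 in control and 81.8, 148 and 167 in Meis1cko arrays, with a low replicate 1 array in both genotypes and overlapping groups. The log2 fold change was 0.38 (SE 0.31, 95% interval -0.35 to 1.12; limma, adjusted p = 1), and the pairs gave 0.24, 0.34 and 0.57. It was 0.70 without Meis1cko replicate 1 and 0.14 without control replicate 1.

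Ears2, for glutamate, was 67.4, 98.2 and 51.4 in control and 88.1, 83.0 and 64.9 in Meis1cko arrays, with a log2 fold change of 0.16 (SE 0.25), and its 4 probe sets ran from -0.10 to 0.19. Aars2, for alanine, was 149, 178 and 225 in control and 174, 187 and 233 in Meis1cko arrays (log2 0.12, SE 0.19). Tars2, for threonine, was 366, 350 and 379 in control and 325, 311 and 410 in Meis1cko arrays (log2 -0.08, SE 0.14). In all 3 genes the groups overlapped, and replicate 3 was the lowest array of each genotype for Ears2 and the highest for Aars2 and Tars2.

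Mars2, for methionine, was dim, with a mean of 28.5 over the 6 arrays, and was the only member gene whose brightest probe set lay below the median intensity of all probe sets (64.8). Its difference was -0.18 on the log2 scale (SE 0.13). The other 10 mitochondrial enzymes lay between -0.03 (Wars2, for tryptophan) and 0.06 (Iars2 and Cars2, for isoleucine and cysteine). Hars2, for histidine, was the tightest of them, with 212 ± 7.76 in control and 213 ± 8.49 in Meis1cko DRGs (log2 0.01, SE 0.11). Nars2, for asparagine, had equal means (434 ± 88.1 and 439 ± 114) but a wide interval, from -0.57 to 0.57.

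**Figure D3:**
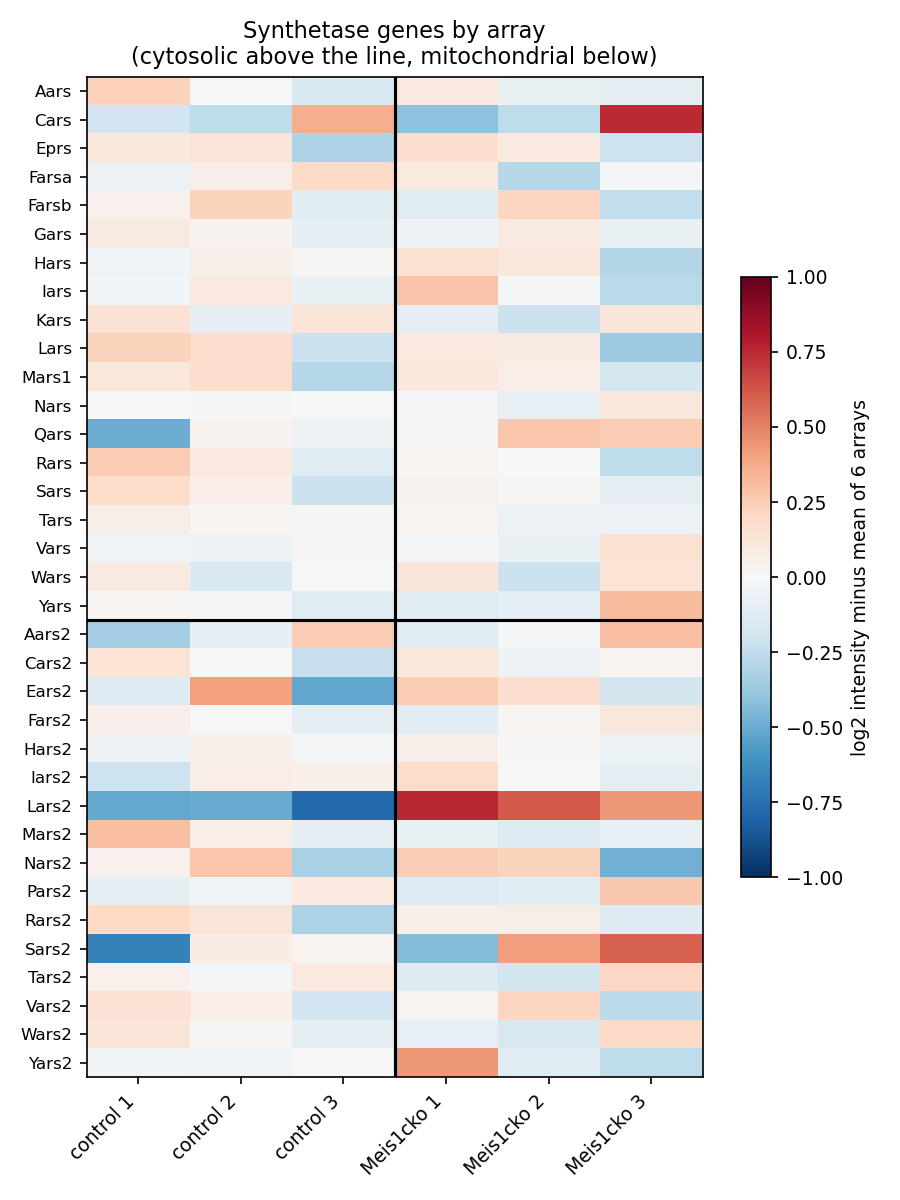
Log2 intensity of the brightest probe set of each synthetase gene on each array, minus the mean of the 6 arrays (colour, red above and blue below that mean). Lars2 is below its mean in the 3 control arrays and above it in the 3 Meis1cko arrays, while many other rows change between replicate 3 and the other arrays in both genotypes.

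The probe sets of a gene agreed more closely for the other synthetases than for Lars2. For the 22 other genes with several probe sets, the log2 fold changes of a gene lay 0.02 to 0.42 apart (median 0.13), compared with 1.76 for Lars2, and had the same sign on all its probe sets for 11 of them. Lars2 was chosen on this contrast and the others were not, so its wider spread is a description and no separate finding. Of the 69 probe sets other than those of Lars2, 0 passed the adjusted threshold, 0 those of the methods (0.675% of all probe sets) and 0 had an unadjusted p under 0.05 (2.32%). Groups that did not overlap were found for 3 of the 69, beside 6.64% of all probe sets. These were the Farsa and Farsb probe sets given above and the dimmest Eprs probe set, at 11.4 ± 0.506 in control and 12.9 ± 0.844 in Meis1cko DRGs.

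**Figure D4:**
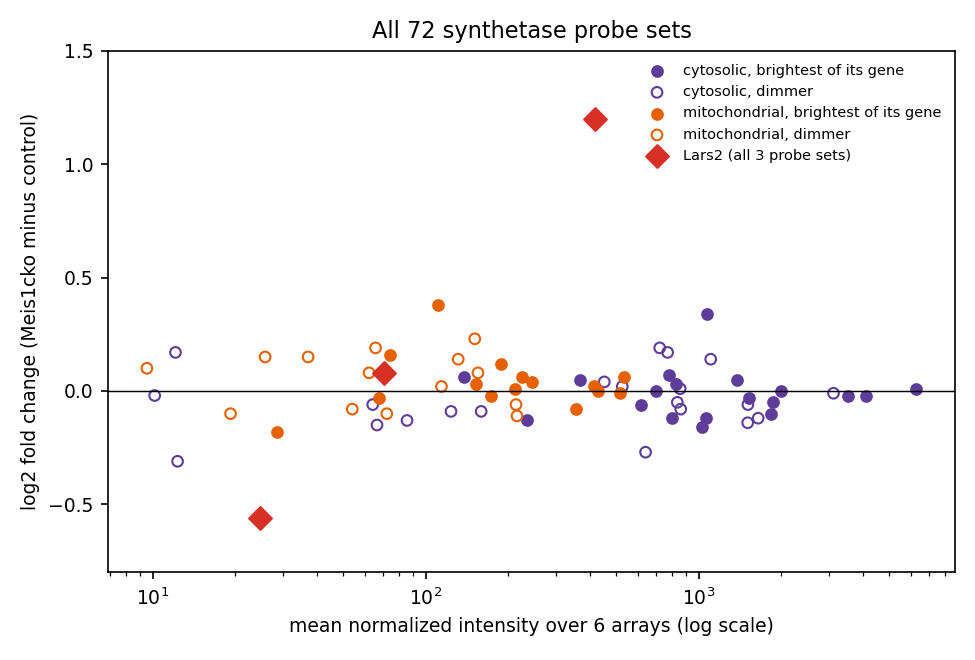
Log2 fold change (Meis1cko minus control) against the mean normalized intensity over 6 arrays (log scale) for all 72 synthetase probe sets, coloured by compartment, with filled circles for the brightest probe set of a gene and diamonds for Lars2. The 69 others lie between -0.31 and 0.38 at every intensity, and the Lars2 probe sets lie at 1.20, 0.08 and -0.56.

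Most synthetases differed more between replicate 3 and the other arrays than between the genotypes, as did most genes of the array. For 30 of the 34 genes other than Lars2, replicate 3 differed from the mean of replicates 1 and 2, averaged over the genotypes, by more than Meis1cko differed from control, beside 71.8% of all genes. The median absolute log2 difference was 0.20 for replicate 3 and 0.05 for genotype, beside 0.20 and 0.09 over all genes. In both genotypes replicate 3 was above the mean of replicates 1 and 2 for 11 genes (Cars by 0.83, Sars2 by 0.46, Aars2 by 0.42) and below it for 17 (Nars2 at -0.60, Ears2 at -0.53, Lars at -0.44), beside 24.4% and 48.9% of all genes. The dimmest Wars probe set (1425106_a_at), for tryptophan, was 86.6, 74.5 and 323 in control and 76.2, 68.5 and 332 in Meis1cko arrays, so that replicate 3 alone was high in each genotype. What the replicate numbers stand for is not given in the sources used here.

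Partner genes of the synthetases were read from lists, each gene by its brightest probe set. The 3 scaffold proteins of the multisynthetase complex lay below 0, with Aimp2 at -0.17 (SE 0.13), Eef1e1 at -0.15 (SE 0.13) and Aimp1 at -0.12 (SE 0.14). An unadjusted p under 0.05 was found for 0 of them, beside 2.56% of all genes, and in lists this short a count of 0 says little. The same held for 0 of 8 synthetase-like and editing genes (median -0.02), among which Dtd1, a deacylase that removes D-amino acids from tRNA, was at -0.24 (SE 0.16) and Aarsd1, an editing factor for mischarged alanyl-tRNA, at -0.13 (SE 0.12). All 5 cytosolic elongation factors were slightly below 0 (median -0.04), with Eef1d at -0.05 (SE 0.15) and Eef1b2 at -0.03 (SE 0.11), and 0 had an unadjusted p under 0.05.

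None of the genes on the lists of mitochondrial translation beside Lars2 passed the adjusted threshold. An unadjusted p under 0.05 was found for 2.56% of all genes, so a count of 0 in the 3 short lists that follow says little. Of 4 genes of mitochondrial tRNA formylation and amidation 0 passed an unadjusted p of 0.05 (median -0.04). Mtfmt, the formyltransferase, was at 0.09 (SE 0.11) and Gatc, an amidotransferase subunit, at -0.08 (SE 0.11). Of 9 mitochondrial translation factors 0 did (median -0.02), with Guf1 at -0.37 (SE 0.24) and the elongation factor Tufm at -0.17 (SE 0.12). Of 15 genes of mitochondrial tRNA processing and modification 0 did (median -0.04), with Hsd17b10, a subunit of mitochondrial RNase P, at -0.25 (SE 0.12) without overlap and the tRNA-modifying enzyme Mto1 at -0.18 (SE 0.15). Of 76 mitochondrial ribosomal protein genes, 64 were below and 12 above 0 (median -0.06), where 54.2% of all genes were below. Groups that did not overlap were found for 9 of the 76, all lower in Meis1cko DRGs, beside 3.82% of all genes. The smallest p-values were those of Mrps12 at -0.34 (SE 0.14) and Mrps10 at -0.30 (SE 0.12), and these 2 of 76 had an unadjusted p under 0.05 (2.56% of all genes) while 0 passed after adjustment (limma). Transcripts of the mitochondrial genome itself, with symbols starting with mt-, had no probe set paired with them alone and were not analysed here.

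Of 26 genes of the amino acid response, the programme that ATF4 drives together with cytosolic synthetases, 18 were above and 8 below 0 (median 0.08), where 45.8% of all genes were above, and 0 passed the adjusted threshold (limma). In all 3 pairs 10 were higher and 4 lower, beside 12.9% and 17.2% of all genes. At an unadjusted p under 0.05 there were 3 of 26, beside 2.56% of all genes, and they differed in direction. Chac1, which degrades glutathione, was 281, 237 and 195 in control and 395, 279 and 402 in Meis1cko arrays, with a difference of 0.59 on the log2 scale (SE 0.20). It was the only one of the 26 past the cut-offs of the methods (0.781% of all genes), and its lowest Meis1cko array lay just below the highest control array. Ddit4, an inhibitor of mTOR signalling, was at -0.43 (SE 0.16) and the amino acid transporter Slc38a2 at 0.33 (SE 0.14). Atf4 itself was 2502, 2407 and 3410 in control and 3410, 2801 and 3940 in Meis1cko arrays, with overlap and a difference of 0.29 on the log2 scale (SE 0.19), higher in all 3 pairs. Asns, the asparagine synthetase gene, had a log2 fold change of -0.02. The 5 synthetase genes with TGATGNAAN near their start (Aars, Gars, Iars, Tars and Yars) lay between -0.06 and 0.07.

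Lars2 lies on chromosome 9 in the RefSeq gene table, with 16 measured genes between it and the end of the chromosome, and the genes around it were read in order of position. The genes next to it, Tmem158 and Limd1, lay at 0.03 (SE 0.13) and 0.32 (SE 0.21) on the log2 scale, and their groups overlapped. Among the 10 measured genes on each side, 0 of 20 passed the adjusted threshold by brightest probe set and 3 had an unadjusted p under 0.05 (15%), beside 3.28% of the 975 genes of chromosome 9 before them. These were Clec3b at -1.19 (SE 0.35), Lztfl1 at -0.46 (SE 0.14) and the dim Ccr1 at 0.54 (SE 0.15). Clec3b, which encodes tetranectin, was 319, 133 and 121 in control and 74.3, 71.7 and 81.1 in Meis1cko arrays, without overlap, and its log2 difference was -0.75 without control replicate 1. The 6 connective tissue markers given above were all lower as well, and whether Clec3b moved with them was not tested.

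Lztfl1, the fifth gene beyond Lars2 and a regulator of ciliary protein transport, resembled Lars2 in that its probe sets disagreed. Its brightest was 591, 563 and 602 in control and 498, 418 and 369 in Meis1cko arrays. A dimmer one (1435514_at) was 20.1, 14.1 and 16.5 in control and 408, 384 and 301 in Meis1cko arrays, a log2 fold change of 4.44 (SE 0.18; limma, adjusted p = 0.00122), the smallest p of all 45037 probe sets. The brightest probe set was lower and the dimmer one higher in every Meis1cko array, without overlap in either. Among the 6 measured genes between the 10 nearest on that side and the chromosome end, named after their values were seen, 2010315B03Rik was 70.2, 80.9 and 52.7 in control and 392, 292 and 200 in Meis1cko arrays (log2 2.09, SE 0.27; limma, adjusted p = 0.177) and Ppp2r3d had a log2 fold change of 0.44 (SE 0.14). Scn10a, the Nav1.8 gene whose promoter fragment drives Cre, lies on the same chromosome, 53 measured genes from Lars2, while Meis1 is on chromosome 11. Where the Cre transgene itself is inserted is not given in the sources used here. Scn10a was 752, 696 and 804 in control and 1213, 950 and 993 in Meis1cko arrays, without overlap and higher by 0.48 on the log2 scale (SE 0.14; limma, adjusted p = 1). Qars was the only other synthetase gene on chromosome 9.

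**Figure D5:**
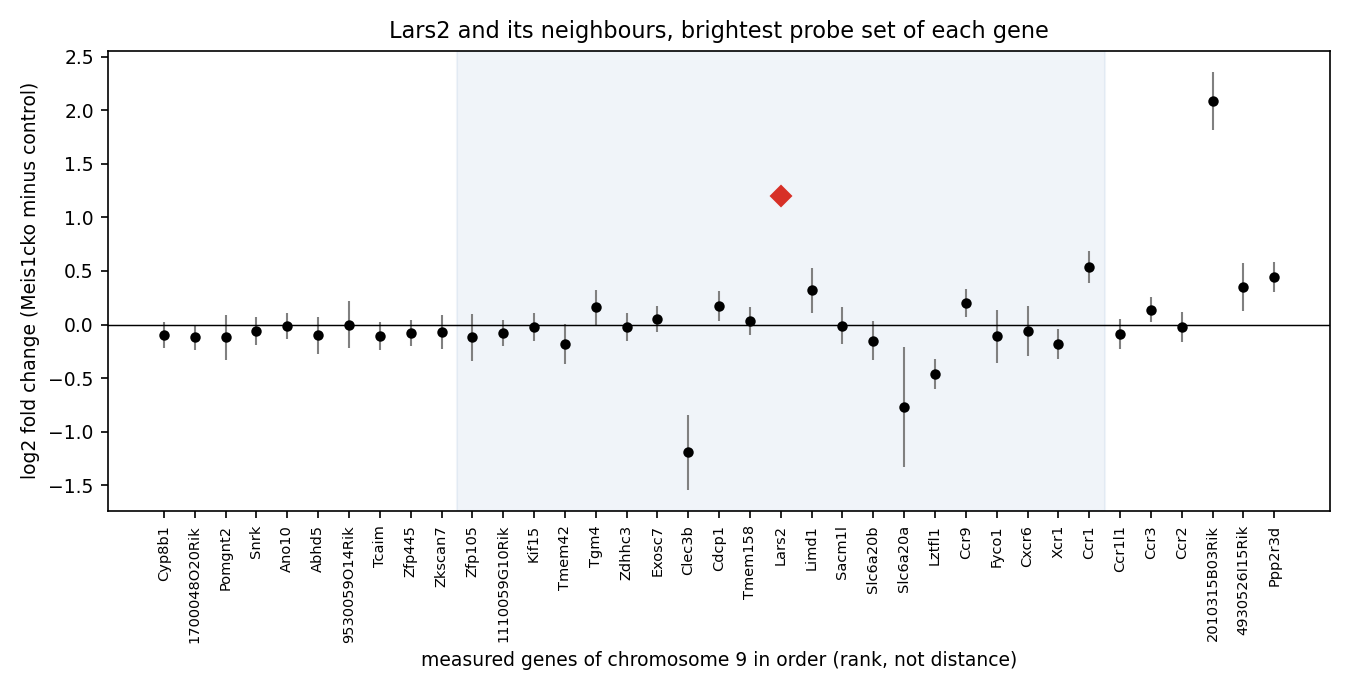
Log2 fold change (Meis1cko minus control) of the brightest probe set of the measured genes around Lars2 in their order on chromosome 9, with bars for the standard error and shading over the 10 genes on each side of Lars2. Lars2 (diamond, 1.20, without a bar) stands above its neighbours Tmem158 and Limd1, with Clec3b at -1.19 and Lztfl1 at -0.46 on either side and 2010315B03Rik at 2.09 near the chromosome end.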

How the data were processed

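Total RNA of DRGs from 3 Meis1cko and 3 control mice was measured on 1-colour arrays. The authors read the images with Affymetrix GeneChip Command Console 4.0 and analysed them in GeneSpring 12.5, and took genes with a fold over 1.5 and p under 0.05 in t-tests as different. The deposited table holds intensity values that the authors had normalized, on a linear scale, with 0 missing and 0 at or below 0. How probes were summarised and normalized is not given in the sources used here, and the number of arrays limits the precision.

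Values were log2-transformed without an offset. The 64 control probe sets were left out, and 45037 were tested in limma 3.58.1 (lmFit, eBayes; R 4.3.3), with no replicate block and Benjamini-Hochberg adjustment over all of them. The fit was tested on simulated arrays drawn independently, without the deviations that the real arrays of the same replicate number shared. Probe sets were named by the array's annotation (1 gene for 34945, several for 932, none for 9160). All 35 member gene IDs are in the RefSeq table of GRCm38.p6, used for names, promoters and gene order. With 3 arrays against 3, an exact two-sided permutation test cannot go below 0.1.

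The members and lists were chosen with earlier results of these data known. Of each compartment, genes at an unadjusted p under 0.05 and the 4 largest differences at or above the median intensity were given for every array. Of each list, the 2 genes with the smallest p were named, and of the neighbours those with an unadjusted p under 0.05. The other members and genes were named after their values were seen. Blood and immune (7 genes), skeletal muscle (6), spinal cord (5) and glia (6) markers had median log2 fold changes of -0.07, -0.27, -0.08 and -0.09. Of these lists 0, 0, 0 and 1 genes had an unadjusted p under 0.05 (limma), beside 2.56% of all genes. The neuron and connective tissue markers are given in the results.

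Arrays of the same replicate number deviated together (correlations 0.424, 0.535 and 0.766), so the numbers were taken to pair the arrays, mostly through replicate 3. Correlations between the other arrays of replicates 1 and 2 were 0.337 and 0.319. The alternatives were the replicate block, eBayes with a trend, the methods' t-test, quantile normalization, median centring, a filter at the median intensity, an offset of 16, each array left out in turn, both replicate 3 arrays left out, and probe sets averaged per gene.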

Additional observations from a re-analysis of the deposited data

How the results depend on the processing

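The log2 difference of Lars2 was 1.20 and between 1.11 and 1.28 in 14 of 15 alternatives, and 0.24 with the probe sets averaged per gene. The counts of synthetases other than Lars2 past the adjusted threshold were 0 in all 15 alternatives, the replicate block included, where the paired fit left Lars2 at 1.20. In that paired fit the adjusted p was 0.565 for Qars and 0.517 for Sars2 (limma). Standard errors, intervals and unadjusted p-values are from the fit without the block, and unadjusted p-values were not counted in the paired fit. At the thresholds of the methods the mitochondrial count was 1 without Meis1cko replicate 1, against 0 in the other alternatives, and the cytosolic count was 0 throughout. Without 1 array at a time the mitochondrial median ran from -0.04 (without control replicate 3) to 0.05. Directions near 0 turned when an array was left out: Tars2 was 0.00 without Meis1cko replicate 2, Lars 0.03 and Aars2 -0.01 without Meis1cko replicate 3, Aars2 -0.03 without control replicate 1, and Ears2 -0.06 without control replicate 3. With 1 array left out, the other ends of their ranges were -0.20 for Tars2, -0.26 for Lars, 0.27 for Aars2 and 0.41 for Ears2. With probe sets averaged, Lztfl1 was 0.88, in the opposite direction to its brightest probe set. Named values that moved by over 1.5 times in some alternative included Sars2 (0.14 to 0.70), Qars (0.05 to 0.45), Clec3b (-0.75 without control replicate 1) and Ccr1 (0.36 with the offset of 16). The causes were not tested. With 3 arrays a group, differences under about 1.5-fold were mostly within the error of the fit without the block. Dim probe sets, such as those of Mars2 and Ccr1, carry little signal over background. Ccr1 had no value under the filter at the median intensity.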
